A study of Arabidopsis thaliana with 20 samples.

Results

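The aliphatic glucosinolate genes of Arabidopsis thaliana leaves are described here as a set of 32 genes, taken from the 37336 genes in the deposited count table. Members were chosen by gene identifier from what is known of the pathway, with no threshold on their values. They comprise 10 genes of methionine chain elongation, 11 of core structure formation, 8 of side-chain change and 3 MYB regulators. Leaf RNA was sequenced in 20 samples, 5 biological replicates in each of 4 groups, and every group consisted of young leaves of wild-type Col-0 plants that were 6 weeks old. Non-infiltrated leaves received nothing, and the other 3 groups were filled with about 40 µL of liquid from a needleless syringe and sampled 2 days later. The liquid was water alone, or single-walled carbon nanotubes (SWNTs) carrying single-stranded RNA, or nanotubes coated with the cationic polymer polyethyleneimine and carrying plasmid DNA (PEI-SWNTs), the nanotubes at 50 ng/µL in both cases. Each replicate pooled 4 leaves from different plants. The PEI-SWNTs were built on carboxylated nanotubes, so SWNTs and PEI-SWNTs differ in the nanotube surface, the polymer and the nucleic acid, and effects of these cannot be told apart. Nor can those of the nanotubes and their nucleic acid be told apart where either group is compared with water.

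Glucosinolates are sulfur-rich defence compounds of Arabidopsis and its relatives, which myrosinase enzymes break down to toxic products when tissue is damaged. The aliphatic class is made from methionine. Its side chain is first lengthened in rounds of reactions that resemble leucine synthesis, the amino acid is then rebuilt into the glucosinolate core, and the side chain is finally oxidised or otherwise changed. MYB28, MYB29 and MYB76 are the transcription factors known to switch on this set of genes, whereas a second class, the indolic glucosinolates, is made from tryptophan by related enzymes and other MYB factors. Several core enzymes serve both classes.

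Samples held between 13387714 and 29737496 counts on genes, with the non-infiltrated group deepest (23138648 to 29737496) and the PEI-SWNT group shallowest (13387714 to 21943422). SWNT replicates 3 and 4 were the closest pair of replicates, at a distance of 29.35 in log2 CPM over all tested genes against 36.74 for the next pair in that group, and they still differed by more than counting noise (mean chi-square per gene 3.81, where counting noise alone gives about 1). Levels are given as CPM, counts relative to the TMM-scaled library size, and as RPKM, the same per kilobase of exon, where genes are compared with each other. Differences are log2 fold changes with their standard error (SE) from edgeR's quasi-likelihood test, fitted to all 20 samples and to the 16288 genes whose mean RPKM reached 1. A gene is called lower or higher when its Benjamini-Hochberg adjusted p is under 0.05 and its change is at least 2-fold, and rose or fell is written of any adjusted p under 0.05. Of the 32 members, 26 passed the RPKM minimum and were tested.

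Most tested members of the pathway had a negative log2 fold change against non-infiltrated leaves in all 3 infiltrated groups. Of the 26 tested, 14 fell in all 3 groups and 10 were called lower in all 3. The share of all genes that did so in all 3 groups is not given here, so these 2 counts are a description only. The median change and the number of members called lower were largest after PEI-SWNTs. As a summed share of all counts, which the most abundant members set, the 32 members took 0.110 to 0.164% in non-infiltrated leaves, 0.0670 to 0.0981% after water, 0.0771 to 0.0978% after SWNTs and 0.0785 to 0.0997% after PEI-SWNTs. The 3 infiltrated groups overlapped in this share, and PEI-SWNTs had the highest median of them, 0.0925% against 0.0763% after water and 0.0848% after SWNTs. In water-infiltrated leaves 14 of the 26 tested members were called lower and 0 higher, where 1.9% of all 16288 genes were called lower and 2.61% higher. After SWNTs 11 members were called lower and 0 higher, against a background of 2.09% lower and 4.82% higher. After PEI-SWNTs 16 were called lower and 1 higher, against 6.29% and 8.47%. For the counts of 0, an unadjusted p under 0.05 in edgeR was met by 2 members above non-infiltrated leaves after water and 3 after SWNTs, all of them under 2-fold, and DESeq2 also called 0. Without the 2-fold minimum, 21 members fell and 1 rose after water, 18 fell and 3 rose after SWNTs, and 19 fell and 3 rose after PEI-SWNTs, where 16.4%, 20.3% and 31.2% of all genes fell and 16.4%, 21.6% and 30.4% rose. In edgeR, glmTreat tests against the 2-fold minimum itself rather than against no change. With it 3 members were lower after water and 0 after SWNTs. An unadjusted p under 0.05 in glmTreat was met by 13, 5 and 16 members lower after water, SWNTs and PEI-SWNTs. The share of all genes under glmTreat is not given here. All samples of the infiltrated group lay below all non-infiltrated samples in 12 members after water, 16 after SWNTs and 19 after PEI-SWNTs, against 7.88%, 12.5% and 20.2% of all genes. They lay above in 0, 1 and 3 members, against 10%, 14.4% and 21.7%.

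The median log2 fold change of the tested members was -1.23 after water, -0.98 after SWNTs and -2.01 after PEI-SWNTs, while the medians over all tested genes lay between -0.02 and 0.00. The 3 comparisons share the non-infiltrated samples, so they are not independent of each other, and the same holds for the comparisons that share water or SWNT samples. The group means stood in the order non-infiltrated, SWNTs, water and PEI-SWNTs, from high to low, in 15 of the 26 members. The share of all genes with this order is not given here. BAT5 is the 1 member that passed the RPKM minimum only through the non-infiltrated group, with a mean of 0.809 RPKM over the 15 infiltrated samples. Without it the counts of members called lower are 13, 10 and 15. In whole leaves, a loss of cells that express the pathway and a loss of its RNA per cell cannot be told apart.

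**Figure D1:**
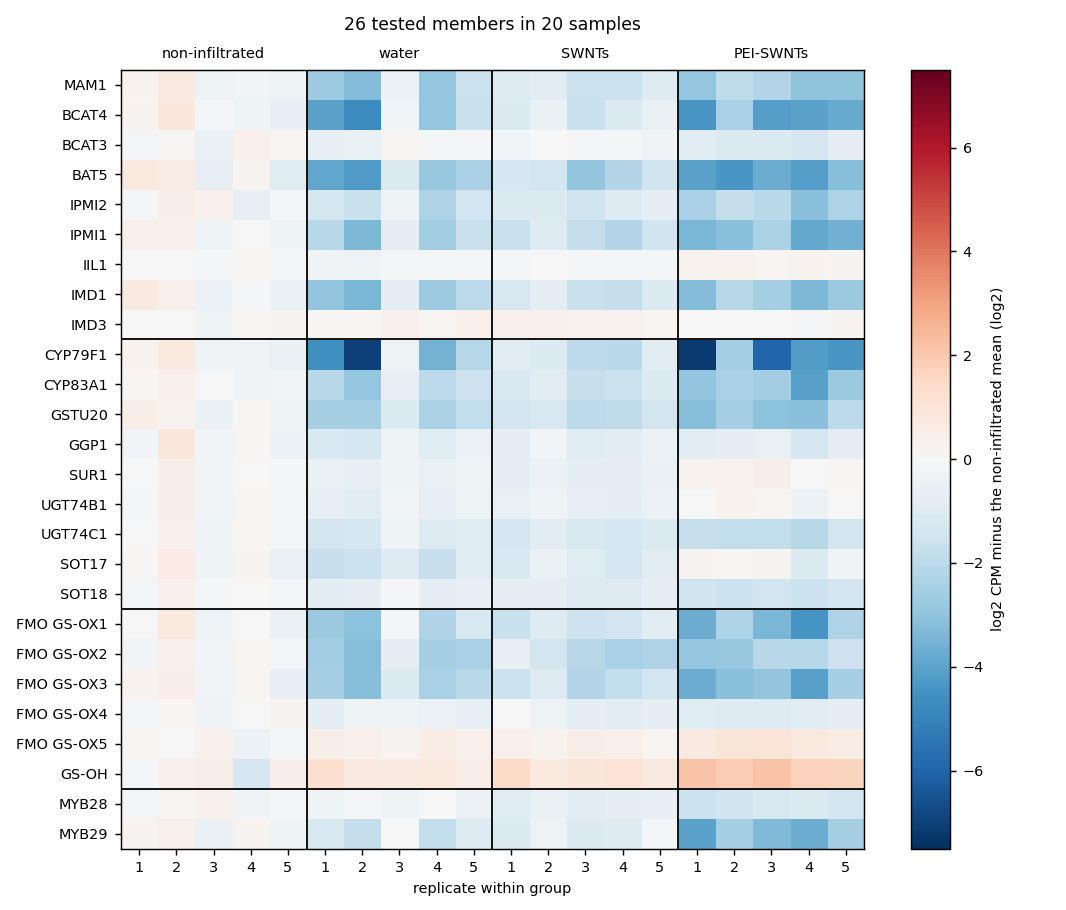
Level of each of the 26 tested members (rows, ordered along the pathway) in each of the 20 samples (columns), as log2 CPM with a prior count of 2, minus the mean of the 5 non-infiltrated samples. Blue is lower and red is higher than that mean. Most rows are blue in all infiltrated samples and deepest in PEI-SWNTs, water replicate 3 stands out as the palest water column, and GS-OH is red.

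**Figure D2:**
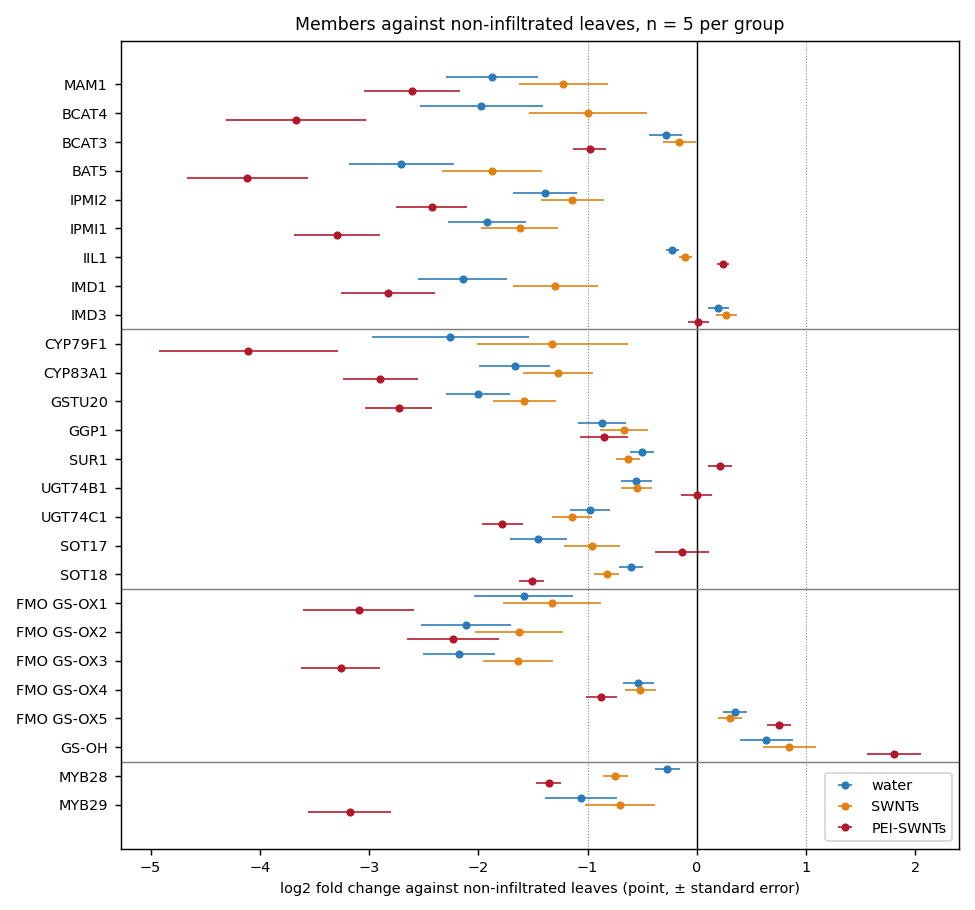
Log2 fold change of each tested member against non-infiltrated leaves in the 3 infiltrated groups, with bars of 1 SE either way (n = 5 per group), and dotted lines at a 2-fold change. Horizontal lines separate chain elongation, core structure, side chain and regulators. CYP79F1 and BCAT4 lie far to the left after PEI-SWNTs, while GS-OH lies farthest right. BAT5, also far to the left, passed the RPKM minimum only through the non-infiltrated group.

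The sequence before the start of each member was read from the TAIR10.1 genome to describe what members that moved together share there. Windows of 250 bases ending at the annotated start were searched on both strands for the AC elements known as binding sites of plant MYB factors, spelled ACCTACC in the first form, ACCAACC in the second form and ACCTAAC in the third, and for the G-box, spelled CACGTG, known as a site of bHLH factors such as MYC4. An AC element was present in 10 of 32 members, 31.2%, and in 6.12% of 27443 protein-coding genes, and CACGTG in 3 members, 9.38%, against 6.49%. Of the 9 tested members with an AC element 5 were called lower after PEI-SWNTs, and of the 17 without one 11 were, against 6.29% of all genes. BAT5, which passed the RPKM minimum only through the non-infiltrated group, is 1 of the 5. The windows of BAT5 and CYP83A1, which fell, are shown beside those of IIL1 and SUR1, which were at or above the non-infiltrated level after PEI-SWNTs, 5′ to 3′ along each gene, with AC elements and CACGTG in capitals on whichever strand they were read.
BAT5 (chr4:7210557-7210806, plus strand): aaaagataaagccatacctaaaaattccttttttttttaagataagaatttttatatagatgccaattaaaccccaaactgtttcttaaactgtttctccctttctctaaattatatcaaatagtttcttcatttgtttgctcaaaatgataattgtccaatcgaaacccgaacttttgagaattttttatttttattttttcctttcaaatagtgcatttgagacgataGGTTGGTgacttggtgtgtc
CYP83A1 (chr4:7992430-7992679, minus strand): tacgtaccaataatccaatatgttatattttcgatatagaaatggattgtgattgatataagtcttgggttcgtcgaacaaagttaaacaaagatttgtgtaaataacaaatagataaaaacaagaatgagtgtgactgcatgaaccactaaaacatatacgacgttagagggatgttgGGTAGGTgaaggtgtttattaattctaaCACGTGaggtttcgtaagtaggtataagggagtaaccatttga
IIL1 (chr4:7807985-7808234, minus strand): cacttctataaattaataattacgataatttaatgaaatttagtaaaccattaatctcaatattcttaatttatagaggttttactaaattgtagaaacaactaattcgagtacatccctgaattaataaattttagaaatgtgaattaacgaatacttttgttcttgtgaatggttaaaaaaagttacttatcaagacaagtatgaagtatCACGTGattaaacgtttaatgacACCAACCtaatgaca
SUR1 (chr2:8880441-8880690, minus strand): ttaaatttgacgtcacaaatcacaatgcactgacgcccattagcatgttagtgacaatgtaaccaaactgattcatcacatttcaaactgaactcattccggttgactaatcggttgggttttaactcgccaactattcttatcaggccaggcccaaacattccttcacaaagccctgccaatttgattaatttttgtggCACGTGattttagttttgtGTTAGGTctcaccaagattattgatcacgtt
The BAT5 window holds an AC element 20 bases before the start and no CACGTG. The other 3 windows hold both an AC element and CACGTG within 71 bases of the start, in CYP83A1 as in IIL1 and SUR1. A match of letters is a description and does not show that a factor binds there.

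Chain elongation had the lowest medians of the 4 steps, -1.88 after water, -1.14 after SWNTs and -2.60 after PEI-SWNTs. Of its 10 genes 9 were tested. After water 6 were called lower, after SWNTs 5 and after PEI-SWNTs 6, against 1.9%, 2.09% and 6.29% of all genes. BAT5, which passed the RPKM minimum only through the non-infiltrated group, is among those called each time. The 6 are MAM1, BCAT4, BAT5, IPMI2, IPMI1 and IMD1, known for their part in methionine chain elongation. MAM1 (AT5G23010, chr5:7703041-7706973) encodes methylthioalkylmalate synthase, which condenses the 2-oxo acid with acetyl-CoA. In replicates 1 to 5 it stood at 59.3, 80.7, 39.0, 42.7 and 38.7 CPM in non-infiltrated leaves and at 7.33, 5.19, 37.5, 6.52 and 16.1 CPM after water. It stood at 25.6, 27.7, 16.6, 16.4 and 25.7 CPM after SWNTs and at 6.49, 13.1, 10.9, 6.19 and 6.20 CPM after PEI-SWNTs. All infiltrated samples lay below all non-infiltrated ones, and within the water group replicate 3 stood more than 2-fold above the next sample. The log2 fold change was -1.88 ± 0.42 after water (adjusted p = 0.00234), -1.22 ± 0.41 after SWNTs (adjusted p = 0.0215) and -2.60 ± 0.44 after PEI-SWNTs (adjusted p = 4.21e-05). The call after SWNTs was lost when non-infiltrated replicate 2, SWNT replicate 3 or SWNT replicate 4 was left out (adjusted p up to 0.0662).

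BCAT4 (AT3G19710, chr3:6846969-6849582) is the methionine aminotransferase that opens the pathway, and BAT5 (AT4G12030, chr4:7210807-7213376) the plastid transporter of its 2-oxo acids. BCAT4 stood at 26.5, 38.8, 21.6, 18.2 and 14.8 CPM in non-infiltrated leaves and at 1.299, 0.764, 19.3, 2.94 and 7.18 CPM after water. It stood at 11.0, 15.7, 7.06, 11.0 and 15.3 CPM after SWNTs and at 1.00, 4.19, 1.18, 1.31 and 1.57 CPM after PEI-SWNTs. After PEI-SWNTs BCAT4 was low in all 5 samples, whereas the water samples ranged from near that level to within the non-infiltrated range. It fell after water, with a log2 fold change of -1.97 ± 0.56 (adjusted p = 0.0116), and after PEI-SWNTs, with -3.67 ± 0.64 (adjusted p = 6.43e-05), and was -0.998 ± 0.54 after SWNTs (adjusted p = 0.144). With only the 10 samples compared in the fit, the adjusted p was 0.0538 after water and 0.0134 after SWNTs. Some 21.2% of the exon bases of BCAT4 overlap a gene on the opposite strand, and how reads there were counted is not given in the sources used here.

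BAT5 stood at 16.9, 14.9, 6.63, 11.5 and 5.34 CPM in non-infiltrated leaves and at 0.587, 0.437, 4.67, 1.29 and 1.78 CPM after water. It stood at 4.19, 3.88, 1.21, 2.16 and 3.51 CPM after SWNTs and at 0.531, 0.397, 0.665, 0.472 and 1.02 CPM after PEI-SWNTs, from 7 to 22 counts per sample. Its log2 fold changes were -2.71 ± 0.48, -1.88 ± 0.46 and -4.12 ± 0.55 after water, SWNTs and PEI-SWNTs (adjusted p = 0.000396, 0.00296 and 2.95e-06). It passed the RPKM minimum only through the non-infiltrated group, so these falls carry that limit. The groups did not overlap with non-infiltrated leaves.

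IPMI2 and IPMI1 encode small subunits of isopropylmalate isomerase that serve chain elongation, and IMD1 the dehydrogenase of the same cycle. IPMI2 (AT2G43100, chr2:17920647-17921844) stood at 4.24, 6.19, 5.62, 2.95 and 4.23 CPM in non-infiltrated leaves and at 1.72, 1.36, 3.51, 0.846 and 1.63 CPM after water. It stood at 2.04, 2.05, 1.51, 2.22 and 2.71 CPM after SWNTs and at 0.767, 1.25, 1.03, 0.420 and 0.833 CPM after PEI-SWNTs. Only in the water group did a sample, replicate 3, reach into the non-infiltrated range. IPMI1 (AT3G58990, chr3:21797058-21798303) stood at 21.3, 21.2, 12.8, 16.3 and 13.2 CPM in non-infiltrated leaves and at 3.90, 1.53, 9.82, 2.59 and 5.04 CPM after water. It stood at 5.07, 8.42, 4.71, 3.53 and 5.88 CPM after SWNTs and at 1.48, 1.81, 3.18, 1.05 and 1.296 CPM after PEI-SWNTs. No infiltrated sample of IPMI1 reached the lowest non-infiltrated one. IMD1 (AT5G14200, chr5:4576123-4578402) stood at 36.2, 30.3, 16.6, 21.4 and 16.2 CPM in non-infiltrated leaves and at 2.89, 2.07, 13.9, 3.38 and 5.83 CPM after water. It stood at 9.76, 14.46, 7.06, 6.67 and 11.3 CPM after SWNTs and at 2.30, 5.44, 3.92, 2.10 and 3.19 CPM after PEI-SWNTs. Here too all infiltrated samples lay below the non-infiltrated ones. The log2 fold changes after PEI-SWNTs were -2.43 ± 0.32 for IPMI2, -3.29 ± 0.40 for IPMI1 and -2.83 ± 0.43 for IMD1 (adjusted p = 2.61e-06, 7.46e-07 and 1.27e-05). After water they were -1.39 ± 0.29, -1.92 ± 0.35 and -2.14 ± 0.41, and after SWNTs -1.14 ± 0.29, -1.62 ± 0.35 and -1.30 ± 0.39, in each case called lower.

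IIL1, IMD3 and BCAT3, which also take part in branched-chain amino acid synthesis, stayed under 2-fold. IIL1 (AT4G13430, chr4:7803863-7807984), the large isomerase subunit used for both leucine and chain elongation, had the highest RPKM of the step (68.4 ± 4.43 RPKM in non-infiltrated leaves, SD, n = 5). It stood at 144, 138, 133, 155 and 134 CPM in non-infiltrated leaves and at 119, 109, 133, 126 and 126 CPM after water. It stood at 131, 140.3, 128, 133 and 125 CPM after SWNTs and at 169, 169, 158, 166 and 161 CPM after PEI-SWNTs. The PEI-SWNT samples were the highest of all 20, and IIL1 rose by 0.24 ± 0.06 on the log2 scale (adjusted p = 0.00136), while it fell after water, with -0.22 ± 0.06 (adjusted p = 0.00616). IMD3 (AT1G31180), a dehydrogenase known mainly from leucine synthesis, was between 0.01 and 0.27 in the 3 comparisons and rose after SWNTs only (adjusted p = 0.0289, and 0.0507 with only the 10 samples compared). Some 15.1% of the exon bases of IMD3 overlap a gene on the opposite strand. BCAT3 (AT3G49680), a plastid aminotransferase of both pathways, fell after PEI-SWNTs, with -0.98 ± 0.15, under 2-fold (adjusted p = 1.76e-05), and was -0.29 ± 0.15 after water and -0.16 ± 0.15 after SWNTs, both over an adjusted p of 0.05.

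The leucine counterparts of these enzymes, outside the set, were measured beside them. The isopropylmalate synthases IPMS1 and IPMS2, the small isomerase subunit IPMI-SSU1 and the dehydrogenase IMD2 stayed under 2-fold in all 6 comparisons. IPMS1 stood at 77.0 to 94.1 CPM in non-infiltrated leaves and 68.0 to 76.6 CPM after PEI-SWNTs, a log2 fold change of -0.26 ± 0.07 (adjusted p = 0.00336). IPMI-SSU1 stood at 78.3 to 89.7 CPM and 116 to 134 CPM and rose by 0.53 ± 0.05 (adjusted p = 5.22e-08). IPMS2 and IMD2 fell after PEI-SWNTs, with -0.29 and -0.29. After water the log2 fold changes of these leucine counterparts were between -0.04 and 0.09 (adjusted p of 0.181 or more). MAM1, IPMI2, IPMI1 and IMD1, their chain elongation equivalents, fell, with -2.14 to -1.39. After SWNTs IPMI-SSU1 rose by 0.20 ± 0.05, and the other 3 leucine counterparts did not pass the test.

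**Figure D3:**
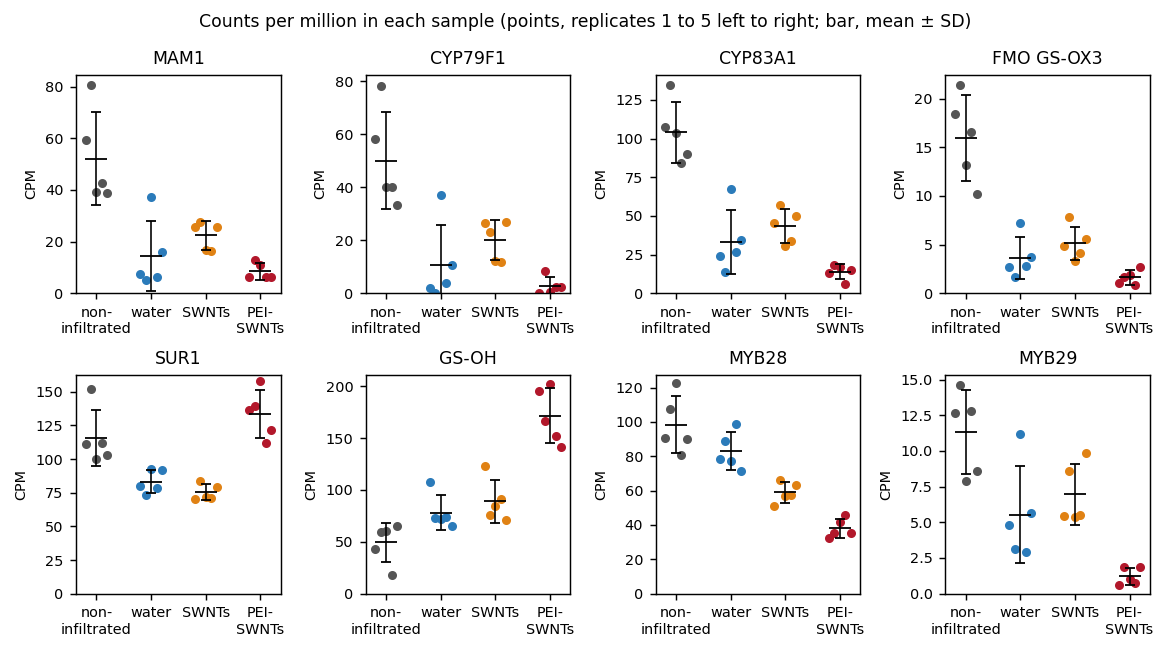
CPM of 8 members in every sample (points, replicates 1 to 5 from left to right within each group), with the mean and SD of each group (n = 5, axes from 0). All infiltrated samples of MAM1, CYP83A1 and FMO GS-OX3 lie below the non-infiltrated ones, water replicate 3 of CYP79F1 lies within the non-infiltrated range, SUR1 and GS-OH have their highest mean after PEI-SWNTs, and MYB28 and MYB29 have their lowest there.

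In core structure formation, the early enzymes that act on methionine derivatives were called lower after water and PEI-SWNTs. After SWNTs CYP83A1 was called lower and CYP79F1 was not. The enzymes shared with the indolic class changed by less than 2-fold or did not pass the test. CYP79F1 (AT1G16410, chr1:5608682-5612064) is the cytochrome P450 that turns chain-elongated methionine into aldoximes, and CYP83A1 (AT4G13770, chr4:7990429-7992429) the P450 that takes up those aldoximes. CYP79F1 stood at 58.1, 78.4, 40.3, 40.0 and 33.5 CPM in non-infiltrated leaves and at 1.89, 0.273, 36.9, 4.08 and 10.9 CPM after water. It stood at 26.5, 23.0, 12.1, 11.8 and 26.8 CPM after SWNTs and at 0.236, 8.44, 0.665, 2.57 and 2.22 CPM after PEI-SWNTs. It was widely scattered, from 5 to 632 counts within the water group and from 4 to 149 within the PEI-SWNT group. It fell after PEI-SWNTs, with a log2 fold change of -4.11 ± 0.82 (adjusted p = 0.000248), and after water, with -2.26 ± 0.72 (adjusted p = 0.0212, and 0.0606 with only the 10 samples compared). After SWNTs all 5 samples lay below the non-infiltrated ones, but the change of -1.32 ± 0.69 did not pass the test across all 20 samples (adjusted p = 0.13) and did so with only the 10 samples compared (adjusted p = 0.00473). Leaving out non-infiltrated replicate 2 or water replicate 4 ended the call after water (adjusted p up to 0.0512).

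CYP83A1 stood at 107, 135, 104, 84.0 and 89.9 CPM in non-infiltrated leaves and at 24.4, 13.8, 67.7, 26.6 and 34.3 CPM after water. It stood at 45.7, 56.8, 30.5, 34.1 and 49.8 CPM after SWNTs and at 13.0, 18.6, 17.0, 5.93 and 14.9 CPM after PEI-SWNTs. All infiltrated samples were below all non-infiltrated ones, and all PEI-SWNT samples were below all SWNT samples. The gene holds an AC element and CACGTG in the window printed above, as SUR1 does. Its log2 fold changes were -1.67 ± 0.32, -1.27 ± 0.32 and -2.90 ± 0.35 after water, SWNTs and PEI-SWNTs (adjusted p = 0.00083, 0.00384 and 6.56e-07). GSTU20 (AT1G78370, chr1:29484120-29485389), a glutathione transferase placed in the pathway by its co-expression, stood at 48.2, 41.6, 24.5, 36.9 and 27.3 CPM in non-infiltrated leaves and at 6.16, 6.17, 17.2, 6.72 and 9.39 CPM after water. It stood at 13.5, 14.8, 8.87, 9.35 and 13.4 CPM after SWNTs and at 3.72, 6.06, 3.99, 3.78 and 8.79 CPM after PEI-SWNTs. As with CYP83A1, no infiltrated sample reached the non-infiltrated range, with log2 fold changes of -2.001 ± 0.29, -1.58 ± 0.29 and -2.73 ± 0.31, all called lower.

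GGP1 (AT4G30530, chr4:14920376-14922519), the gamma-glutamyl peptidase that trims the glutathione conjugates of both glucosinolate classes, had the highest RPKM of all members in non-infiltrated leaves (136 ± 49.7, SD, n = 5). It stood at 136, 268, 138, 168 and 117 CPM in non-infiltrated leaves and at 72.3, 64.5, 122, 83.1 and 118 CPM after water. It stood at 97.9, 138, 83.2, 87.6 and 116 CPM after SWNTs and at 91.7, 97.5, 106, 66.3 and 95.7 CPM after PEI-SWNTs. It fell in the 3 groups, under 2-fold in each, with log2 fold changes of -0.87 ± 0.22, -0.67 ± 0.22 and -0.85 ± 0.22. The fall after SWNTs did not pass the test without non-infiltrated replicate 2 or SWNT replicate 3 (adjusted p up to 0.0877). SUR1 (AT2G20610), the C-S lyase of all glucosinolates, and UGT74B1 (AT1G24100), the S-glucosyltransferase of both classes, fell after water and SWNTs but not after PEI-SWNTs. SUR1 was -0.50 ± 0.11 after water (adjusted p = 0.0022), -0.63 ± 0.11 after SWNTs (adjusted p = 0.000188) and 0.22 ± 0.11 after PEI-SWNTs (adjusted p = 0.0974). UGT74B1 was -0.55 ± 0.14, -0.55 ± 0.14 and -0.001 ± 0.14, the last with a 95% interval of -0.29 to 0.29. After PEI-SWNTs SUR1 was higher than after water by 0.72 ± 0.11 and UGT74B1 by 0.55 ± 0.14 (adjusted p = 2.57e-05 and 0.00294).

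The glycosyltransferase and sulfotransferases that favour aliphatic substrates did not move as 1 group. UGT74C1 (AT2G31790) ranged over 18.4 to 29.6 CPM in non-infiltrated leaves, 9.09 to 19.2 CPM after water, 9.54 to 13.8 CPM after SWNTs and 5.56 to 8.98 CPM after PEI-SWNTs. Its log2 fold changes were -0.98 ± 0.18, -1.14 ± 0.18 and -1.78 ± 0.19, the last 2 called lower, and 18.6% of its exon bases overlap genes on the opposite strand. SOT18 (AT1G74090), a sulfotransferase that completes the core, fell in each group, with -0.60 ± 0.11 after water, -0.82 ± 0.11 after SWNTs and -1.51 ± 0.12 after PEI-SWNTs, only the last at 2-fold or more (adjusted p = 1.88e-09). SOT17 (AT1G18590, chr1:6398531-6400029), the related sulfotransferase, stood at 17.9, 26.03, 13.2, 19.2 and 11.4 CPM in non-infiltrated leaves and at 4.95, 5.35, 8.53, 4.98 and 8.81 CPM after water. It stood at 7.56, 12.02, 8.75, 7.06 and 9.86 CPM after SWNTs and at 19.2, 18.8, 19.2, 8.08 and 14.2 CPM after PEI-SWNTs. All water samples of SOT17 were below the non-infiltrated ones, while it was within the non-infiltrated range in 4 of 5 PEI-SWNT samples. It fell after water and SWNTs, with -1.45 ± 0.26 and -0.96 ± 0.25 (adjusted p = 0.000389 and 0.00508), was -0.14 ± 0.25 after PEI-SWNTs (adjusted p = 0.651), and was called higher after PEI-SWNTs than after water, by 1.31 ± 0.26 (adjusted p = 0.000322).

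Among the side-chain genes, 3 of the S-oxygenases that turn methylthio into methylsulfinyl side chains were called lower in all 3 groups, and FMO GS-OX5 and GS-OH rose after SWNTs and PEI-SWNTs. FMO GS-OX1 (AT1G65860, chr1:24498954-24502776) stood at 17.3, 27.9, 14.1, 16.2 and 11.5 CPM in non-infiltrated leaves and at 2.31, 1.91, 15.1, 3.33 and 7.07 CPM after water. It stood at 5.07, 8.53, 5.61, 6.01 and 9.53 CPM after SWNTs and at 1.18, 3.29, 1.48, 0.682 and 3.29 CPM after PEI-SWNTs. Only water replicate 3 overlapped the non-infiltrated range. FMO GS-OX2 (AT1G62540, chr1:23151634-23155728) stood at 15.9, 23.2, 15.5, 20.3 and 16.5 CPM in non-infiltrated leaves and at 2.85, 1.86, 10.7, 3.13 and 3.30 CPM after water. It stood at 11.8, 6.98, 4.17, 3.20 and 3.56 CPM after SWNTs and at 2.30, 2.44, 4.21, 3.99 and 6.20 CPM after PEI-SWNTs. FMO GS-OX2 did not differ between PEI-SWNTs and water beyond the spread, with a log2 difference of -0.12 and a 95% interval of -1.03 to 0.79. FMO GS-OX3 (AT1G62560, chr1:23159734-23162881) stood at 18.4, 21.4, 13.2, 16.6 and 10.2 CPM in non-infiltrated leaves and at 2.68, 1.64, 7.19, 2.84 and 3.77 CPM after water. It stood at 4.91, 7.81, 3.32, 4.18 and 5.55 CPM after SWNTs and at 1.06, 1.70, 1.92, 0.840 and 2.68 CPM after PEI-SWNTs. No infiltrated sample of FMO GS-OX3 reached the non-infiltrated range. After PEI-SWNTs the log2 fold changes were -3.10 ± 0.51 for FMO GS-OX1, -2.23 ± 0.42 for FMO GS-OX2 and -3.26 ± 0.36 for FMO GS-OX3 (adjusted p = 3.04e-05, 0.000131 and 2.54e-07). After water they were -1.58, -2.11 and -2.17, and after SWNTs -1.33, -1.63 and -1.63, all called lower. For FMO GS-OX1 the call after SWNTs was lost without non-infiltrated replicate 2, SWNT replicate 1 or SWNT replicate 3 (adjusted p up to 0.073).

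FMO GS-OX4 (AT1G62570) lies beside FMO GS-OX2 and FMO GS-OX3 on chromosome 1, 5885 bases beyond FMO GS-OX3, but its log2 fold changes were smaller, -0.54 ± 0.14, -0.52 ± 0.14 and -0.88 ± 0.14 after water, SWNTs and PEI-SWNTs. FMO GS-OX5 (AT1G12140), known for its preference for long-chain substrates, rose in all 3 groups, under 2-fold, by 0.35 ± 0.11, 0.30 ± 0.11 and 0.75 ± 0.11 (adjusted p = 0.0209, 0.0352 and 9.16e-06). The rises after water and SWNTs did not pass the test with only the 10 samples compared (adjusted p = 0.0588 and 0.0791), and 28.2% of its exon bases overlap other genes. GS-OH (AT2G25450, chr2:10829854-10831655), a 2-oxoacid-dependent dioxygenase known to hydroxylate alkenyl side chains, stood at 43.3, 59.5, 60.5, 18.5 and 65.0 CPM in non-infiltrated leaves and at 107, 72.6, 71.7, 73.6 and 65.0 CPM after water. It stood at 123, 75.6, 84.3, 91.4 and 70.9 CPM after SWNTs and at 196, 166, 202, 152 and 141 CPM after PEI-SWNTs. All PEI-SWNT samples were above all 15 others, and GS-OH had the highest RPKM of any member there (107 ± 16.5, SD, n = 5). It rose by 1.81 ± 0.25 after PEI-SWNTs (adjusted p = 3.88e-06) and by 0.85 ± 0.24 after SWNTs (adjusted p = 0.00897), and was 0.64 ± 0.24 after water (adjusted p = 0.0511, and 0.0231 in DESeq2). Of its 1307 exon windows of 100 bases, 25 occur elsewhere in the genome.

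Both tested regulators were called lower after PEI-SWNTs, while MYB28 was not after water and MYB29 was. MYB28 (AT5G61420, chr5:24689069-24691187) stood at 90.7, 108, 123, 80.8 and 90.3 CPM in non-infiltrated leaves and at 78.3, 89.0, 77.5, 98.7 and 71.2 CPM after water. It stood at 51.0, 66.1, 57.0, 57.6 and 63.2 CPM after SWNTs and at 32.3, 35.1, 41.5, 46.0 and 35.6 CPM after PEI-SWNTs. Water and non-infiltrated samples overlapped, SWNT samples lay below both, and PEI-SWNT samples lay below those. Its log2 fold changes were -0.27 ± 0.11 (adjusted p = 0.0733), -0.75 ± 0.12 (adjusted p = 4.89e-05) and -1.36 ± 0.12 (adjusted p = 8.79e-09) after water, SWNTs and PEI-SWNTs. MYB29 (AT5G07690, chr5:2446669-2448584) stood at 12.7, 14.6, 7.88, 12.8 and 8.60 CPM in non-infiltrated leaves and at 4.78, 3.11, 11.2, 2.94 and 5.65 CPM after water. It stood at 5.46, 8.59, 5.37, 5.49 and 9.86 CPM after SWNTs and at 0.590, 1.87, 1.03, 0.735 and 1.85 CPM after PEI-SWNTs. All PEI-SWNT samples were below all others, whereas the water and SWNT samples reached into the non-infiltrated range. MYB29 fell after PEI-SWNTs, with -3.18 ± 0.38 (adjusted p = 7.29e-07), and after water, with -1.06 ± 0.33 (adjusted p = 0.0177), and was -0.70 ± 0.32 after SWNTs (adjusted p = 0.0866, and 0.0286 with only the 10 samples compared). In non-infiltrated leaves MYB28 stood at 49.8 ± 8.45 RPKM and MYB29 at 6.54 ± 1.69 RPKM (SD, n = 5).

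Water and SWNTs were compared to ask what the nanotubes with their single-stranded RNA add to infiltration. Between these groups 0 of the 26 members were called lower and 0 higher, against 0.289% and 1.23% of all genes. In edgeR an unadjusted p under 0.05 was met by 1 member lower and 0 higher, and DESeq2 also called 0 in both directions. The 1 member was MYB28, with a log2 fold change of -0.47 ± 0.12 (adjusted p = 0.00941) and no overlap between the groups. Over all genes 6.14% fell and 7.52% rose between these groups, and 6.01% and 5.7% had groups that did not overlap, where the members had 1 lower and 0 higher on both measures. The absence of calls does not show equal levels, since the 95% intervals of the most scattered members were wide, as in CYP79F1 (-0.55 to 2.43), BCAT4 (-0.21 to 2.16) and BAT5 (-0.21 to 1.87). They were narrow in IIL1 (-0.001 to 0.24), IMD3 (-0.13 to 0.27) and SUR1 (-0.36 to 0.10).

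Water replicate 3 stood apart from the other water samples in these genes. It was the highest water sample in 21 of the 26 members, whereas 21.1% of all tested genes had their highest water value in it. The sample was picked out by its level in these same members, so leaving it out lowers their water level by selection. The fits without it therefore show only how far the results rest on 1 sample. With all 5 water samples 0 members were called higher after SWNTs than after water. Without water replicate 3, 6 members were, against 1.41% of all genes. These were MAM1 (log2 fold change 1.35), BCAT4 (1.95), BAT5 (1.54), IMD1 (1.47), CYP79F1 (2.19) and FMO GS-OX2 (1.10), with adjusted p from 0.00785 to 0.0495. MYB28 remained lower after SWNTs without that sample, at -0.49. The median over the tested members moved from 0.26 to 0.61. Against non-infiltrated leaves, 15 members were called lower after water without it, against 2.42% of all genes, with a median of -1.51, CYP79F1 at -3.52, BCAT4 at -2.95 and MAM1 at -2.57. In the other groups SWNT replicate 2 was highest in 16 members and non-infiltrated replicate 2 in 15, against 20% and 14.9% of all genes, and PEI-SWNT replicate 4 was lowest in 15, against 22.9%.

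**Figure D4:**
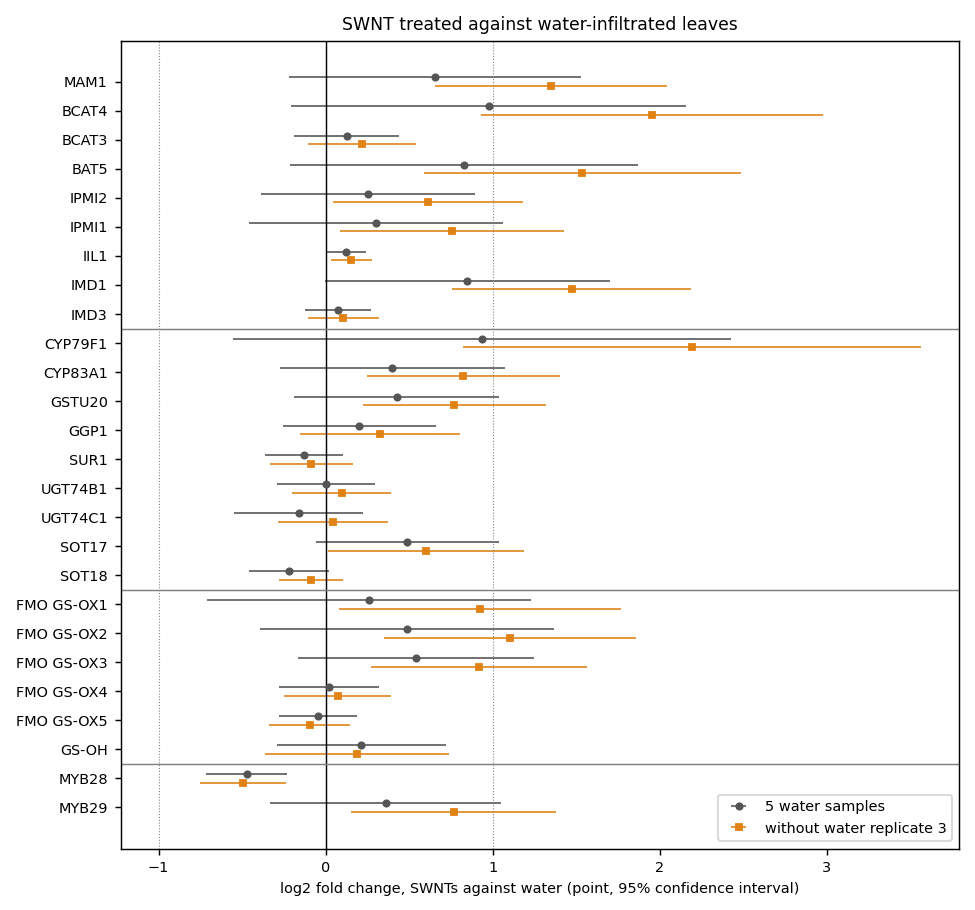
Log2 fold change of each tested member after SWNTs relative to water, with 95% confidence intervals, fitted with all 5 water samples (grey circles) and without water replicate 3 (orange squares). Dotted lines mark a 2-fold change. Without that sample most chain elongation and core members shift to the right and 6 members are called higher, while MYB28 stays on the left. The sample was picked out by its high level in these same members, so the shift follows from that choice.

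PEI-SWNTs were compared with SWNTs and with water to ask what the coated nanotubes with their plasmid DNA add. Against SWNTs, 12 members were called lower and 0 higher, where 2.58% and 3.81% of all genes were. In edgeR 6 members met an unadjusted p under 0.05 upwards, all under 2-fold, and DESeq2 called 0. The 12 were MAM1, BCAT4, BAT5, IPMI2, IPMI1, IMD1, CYP79F1, CYP83A1, GSTU20, FMO GS-OX1, FMO GS-OX3 and MYB29, with the largest differences in CYP79F1 (-2.78 ± 0.81, adjusted p = 0.00997), BCAT4 (-2.67 ± 0.65, adjusted p = 0.00266) and MYB29 (-2.48 ± 0.39, adjusted p = 4.58e-05). IIL1, SUR1, UGT74B1, SOT17, FMO GS-OX5 and GS-OH rose, under 2-fold, with GS-OH at 0.96 ± 0.24 and SUR1 at 0.85 ± 0.11. Regardless of size 17 fell and 6 rose, against 19% and 22.3% of all genes, and the groups did not overlap in 16 lower and 4 higher members, against 13.1% and 15.3%. The count of members called lower was 12 in every fit that left out 1 sample, and 1 with glmTreat. In glmTreat 9 members met an unadjusted p under 0.05 downwards.

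Against water, 8 members were called lower and 2 higher, where 3.47% and 6.13% of all genes were. The 8 were BCAT4, IPMI2, IPMI1, CYP83A1, FMO GS-OX1, FMO GS-OX3, MYB28 and MYB29, and the 2 were SOT17 and GS-OH. Regardless of size 11 fell and 6 rose, against 24.3% and 27.7% of all genes, and the groups did not overlap in 5 lower and 4 higher members, against 17.1% and 17.9%. With glmTreat 1 member was lower and 0 were higher, where 1 met an unadjusted p under 0.05 in each direction and DESeq2 called 9 and 2 on the usual rule. The count depended on water replicate 3, for without it 2 members were called lower, against 3.16% of all genes, namely MYB28 and MYB29. MYB28 differed by -1.08 ± 0.12 (adjusted p = 3.09e-07) and MYB29 by -2.12 ± 0.39 (adjusted p = 0.000155) with all samples. For BCAT4 (-1.70 ± 0.66, adjusted p = 0.0371) and FMO GS-OX1 (-1.51 ± 0.52, adjusted p = 0.0192) the call also ended with only the 10 samples compared (adjusted p = 0.0843 and 0.0515). GS-OH was higher by 1.17 ± 0.24 (adjusted p = 0.000516), and IIL1, SUR1, UGT74B1 and FMO GS-OX5 rose under 2-fold, by 0.40 to 0.72.

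The 6 members that were not tested included 3 with counts that fell too. AOP2 (AT4G03060), which the annotation lists as a transcribed pseudogene, stood at 7.99, 6.81, 2.30, 4.22 and 4.37 CPM in non-infiltrated leaves and at 0.0590, 0.113, 0, 0.210 and 0.231 CPM after PEI-SWNTs, where no sample had more than 5 counts. In a fit that kept 18477 genes by edgeR's filterByExpr, its log2 fold changes were -3.08 ± 0.49 after water, -2.04 ± 0.45 after SWNTs and -5.18 ± 0.62 after PEI-SWNTs (adjusted p = 0.000157, 0.00147 and 6.42e-07). CYP79F2 (AT1G16400), the P450 for long-chain methionine derivatives, lies 1183 bases upstream of CYP79F1 and stood at 1.31 to 4.51 CPM in non-infiltrated leaves and 0.158 to 0.623 CPM after PEI-SWNTs. In the same fit its log2 fold changes were -1.78 ± 0.39, -1.37 ± 0.38 and -2.76 ± 0.44, in each case called lower. CYP79F2 and CYP79F1 share 1 exon window of 100 bases. MYB76 (AT5G07700), 1442 bases beyond MYB29, stood at 0.989, 0.778, 0.904, 1.02 and 0.269 CPM in non-infiltrated leaves and at 0, 0.0566, 0, 0 and 0.185 CPM after PEI-SWNTs, from 0 to 4 counts. Its medians were 0.199 CPM after water and 0.441 CPM after SWNTs. It was called lower after PEI-SWNTs and after water in that fit (adjusted p = 0.00025 and 0.0152) but not after SWNTs (adjusted p = 0.267). Its place in that fit rests mainly on the non-infiltrated samples, so these calls carry the limit given for BAT5. MAM3 (AT5G23020), the synthase for longer chains, was scattered from 0 to 3.09 CPM within the non-infiltrated group and did not pass the test in any comparison.

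AOP3 (AT4G03050) and GSTF11 (AT3G03190) had 0 counts in all 20 samples. For GSTF11 all 934 exon bases overlap a gene on the opposite strand in the annotation, so its 0 cannot be read as absent expression while the counting rule for such reads is unknown. AOP3 has no such overlap, and up to 3 counts per sample would be allowed by its 0.

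The indolic genes, chosen as a list of 16 of which 11 were tested, are the nearest relatives of the pathway. After PEI-SWNTs 4 fell and 6 rose, with a median log2 fold change of 0.46, where 31.2% of all genes fell and 30.4% rose. After water 6 fell and 2 rose, with a median of -0.42, where 16.4% fell and 16.4% rose. CYP83B1, the indolic counterpart of CYP83A1, stood at 334 to 589 CPM in non-infiltrated leaves and 839 to 1286 CPM after PEI-SWNTs, a rise of 1.34 ± 0.14 (adjusted p = 8.97e-08), whereas CYP83A1 fell, with -2.90. SOT16, the indolic sulfotransferase, and GSTF9, a glutathione transferase, were called higher after PEI-SWNTs than after water, by 1.26 ± 0.17 and 1.32 ± 0.12. CYP79B3, which makes the indolic aldoxime, was called lower after water (-1.08 ± 0.23) and fell under 2-fold in the other groups. The regulators MYB34 and MYB51 moved in opposite directions after PEI-SWNTs, by -2.28 ± 0.26 and 2.76 ± 0.31. MYB51 was also called higher after water (1.48 ± 0.31) and SWNTs (2.00 ± 0.31). The late indolic genes were mixed, with the methyltransferase IGMT2 called higher in all 3 groups, by 1.85, 3.20 and 3.51, IGMT5 called lower in all 3, by -2.27, -2.65 and -4.41, and the P450 CYP81F3 called lower after SWNTs (-1.04). IGMT2 was also called higher after SWNTs than after water (1.35 ± 0.40, adjusted p = 0.0303).

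Of 11 genes of glucosinolate transport, sulfate supply and upstream regulation, 9 were tested. After water 1 was called lower and 0 higher, after SWNTs 2 and 1, and after PEI-SWNTs 3 and 0. Over all genes 1.9%, 2.09% and 6.29% were called lower and 2.61%, 4.82% and 8.47% higher. APK2, the kinase that makes the activated sulfate for sulfotransferases, was called lower after water (-1.11 ± 0.26) and SWNTs (-1.05 ± 0.26) and was -0.25 ± 0.26 after PEI-SWNTs (adjusted p = 0.429). MYC4, a bHLH factor that works with the MYB regulators, was called lower after SWNTs (-1.11 ± 0.15) and PEI-SWNTs (-1.14 ± 0.15) and not after water (-0.31, adjusted p = 0.112). GTR1, a glucosinolate importer, stood at 48.6 to 103 CPM after water and 145 to 233 CPM after SWNTs, without overlap, and was called higher after SWNTs than in non-infiltrated leaves (1.10 ± 0.27) and than after water (1.19 ± 0.27, adjusted p = 0.00648). GTR3, a relative of GTR1, and SDI2, a sulfur-deficiency gene known to repress the pathway, were called lower after PEI-SWNTs (-1.09 ± 0.31 and -1.01 ± 0.23). Of the exon bases of GTR3, SDI2 and GTR1, 30.7%, 27.4% and 17% overlap genes on the opposite strand. How reads there were counted is not given.

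Markers of leaf cell types moved with the groups as well. The 11 vascular markers were chosen because the leaf cells known for aliphatic glucosinolate synthesis lie along the veins. They summed to 928 to 1250 CPM in non-infiltrated leaves, 911 to 1040 CPM after water, 842 to 930.4 CPM after SWNTs and 751 to 849 CPM after PEI-SWNTs. The largest part of the sum was AHA3, with means of 469 CPM in non-infiltrated leaves and 308 CPM after PEI-SWNTs. The markers did not move as 1 group, for SUC2 had means of 142 and 139 CPM and APL of 19.2 and 18.3 CPM in the same groups. Of the 10 tested, 4 fell and 1 rose after water, 5 fell after SWNTs, and 7 fell after PEI-SWNTs, of which 1, SWEET12, was called lower, where 16.4%, 20.3% and 31.2% of all genes fell. Their median log2 fold changes were -0.30, -0.40 and -0.63. The 3 guard cell markers fell in all 3 groups, and their sum was 63.1 to 77.7 CPM in non-infiltrated leaves, 42.3 to 51.9 CPM after water, 43.6 to 49.9 CPM after SWNTs and 35.0 to 38.6 CPM after PEI-SWNTs. Of these KAT1, a guard cell potassium channel, was called lower after SWNTs (-1.17 ± 0.14) and PEI-SWNTs (-1.55 ± 0.14). The 3 mesophyll markers, which check the labelled tissue, summed to at least 32110 CPM in every sample, a sum made up mostly by LHCB1.3. The carbonic anhydrase gene CA1, a small part of that sum, stood at 90.7 to 137 CPM in non-infiltrated leaves and 29.8 to 107 CPM after PEI-SWNTs and was called lower there (-1.07 ± 0.29, adjusted p = 0.00324). The 5 markers of other organs summed to at most 4.94 CPM, with 1, the root gene CASP1, at 0 in all samples. The part of these cell types in the pathway's changes was not tested.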

How the data were processed

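Poly-A RNA libraries from 20 leaf samples were analysed, 5 in each of 4 groups, with replicates that the authors' methods describe as biological. The authors trimmed reads with Trimmomatic, aligned them to TAIR10 with HISAT2 at default settings, and deposited raw counts per gene. The submitters' processing notes name featureCounts 2.0.1 and edgeR 3.30.3. Strand setting and the treatment of reads with several matches are not given in the sources used here. A second deposited table holds the authors' own log2 fold changes, log2 CPM, F statistics, p-values and FDR, of which nothing but gene length was used, for 139 genes that had none in the annotation (37051 lengths came from TAIR10.1, and 146 genes had none).

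From the deposited counts, edgeR 4.0.16 in R 4.3.3 (with limma 3.58.1) gave TMM factors and a quasi-likelihood fit of 4 group means to all 20 samples and the 16288 genes whose mean RPKM reached 1. Each pair of groups was 1 contrast, Benjamini-Hochberg adjusted over all 16288 genes. A gene was called at an adjusted p under 0.05 and a change of at least 2-fold. SE is the log2 fold change over the root of F, and 95% intervals use the t distribution of the fit. Log2 CPM used a prior count of 2. Totals of 13387714 to 29737496 counts per sample set the counting precision, and floors cover counting error only. The script was tested on simulated data.

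Alternatives were DESeq2 1.42.0, RLE factors or library size alone, filterByExpr or no filter, robust and newer dispersion estimation, other thresholds, glmTreat, a joint F test, only the 10 samples compared, a block on replicate number, SWNT replicates 3 and 4 summed, and each sample left out in turn. Members, and the lists of indolic genes, leucine counterparts, transport and sulfate genes, and markers of mesophyll, vascular, guard and other-organ cells, were chosen with earlier results of these data known. All 32 members may be named. Genes of the lists beside them, markers included, are named where called in any comparison, and the leucine counterparts always. LHCB1.3, AHA3, SUC2 and APL are named besides, to show what the marker sums hold. Values in every sample are given for members with the highest RPKM of their step, those called in all 3 comparisons with non-infiltrated leaves or called higher in any, and the MYB factors. BCAT4, CYP79F1 and AOP2 were added after their values were seen. Figures and tables used Python 3.11.15, pandas 2.3.3, numpy 2.4.6 and matplotlib 3.10.9. The labels give no batch.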

Additional observations from a re-analysis of the deposited data

Results flagged for a closer look

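Of 104 groups of 5 samples (26 tested members in 4 groups), 4 had an extreme sample whose gap to the next, divided by the range of the group, passed Dixon's 95% value of 0.71. Chance gives about 1 in 20 groups. SUR1 stood at 152.3 CPM in non-infiltrated replicate 2, where the next highest sample had 112.2 CPM. SOT18 stood at 62.2 CPM in the same sample, where the others lay between 45.4 and 49.1 CPM. SOT18 also stood at 45.1 CPM in water replicate 3, where the others lay between 28.9 and 31.7 CPM. GS-OH stood at 107.2 CPM in water replicate 1, where the others lay between 65.0 and 73.6 CPM. Non-infiltrated replicate 2 and water replicate 3 are also the samples in which most members were highest in their groups.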

How the results depend on the processing

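Of 300 results for single genes under 9450 alternatives, 9051 kept their direction and their side of the threshold, 267 lost the call, 155 of them when glmTreat asked for a change larger than 2-fold, 132 gained one and 0 reversed. Under glmTreat 3 members were lower after water and 0 after SWNTs. An unadjusted p under 0.05 was met by 13 and 5, where DESeq2 called 14 and 11. In PEI-SWNTs 1 was lower against water and 1 against SWNTs (1 and 9 unadjusted). In PEI-SWNTs against water 0 were higher (1 unadjusted, where DESeq2 called 2). With no fold minimum, 1 was higher after water, 18 lower and 3 higher after SWNTs, 3 higher after PEI-SWNTs, 1 lower in SWNTs against water, 6 higher in PEI-SWNTs against water and 6 against SWNTs. At 1.5-fold, 1 was higher after SWNTs, 2 after PEI-SWNTs and 3 in PEI-SWNTs against SWNTs. At an adjusted p under 0.01, 4 were lower in PEI-SWNTs against water.

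With 1 sample left out, members lower ranged from 12 to 15 after water, 9 to 12 after SWNTs, 16 to 17 after PEI-SWNTs, 2 to 10 in PEI-SWNTs against water and 12 to 12 against SWNTs, and members higher from 0 to 6 in SWNTs against water and 0 to 1 in PEI-SWNTs against SWNTs. Medians ranged from -1.51 to -1.09, -1.11 to -0.76, -2.18 to -1.91, 0.13 to 0.61, -0.89 to -0.49 and -0.90 to -0.74 in the order water, SWNTs and PEI-SWNTs against non-infiltrated leaves, SWNTs and PEI-SWNTs against water, and PEI-SWNTs against SWNTs. Samples of the same replicate number deviated together with correlations of -0.36 to 0.29, and the own number was the best correlated in 10 of 60 cases. A replicate block gave 14, 11, 16, 0, 7 and 12 members lower in the same order of comparisons, 8 becoming 7 by BCAT4. The cause of these changes was not tested. Depth limits AOP2, MYB76 and BAT5, with 0 to 22 counts per sample after PEI-SWNTs.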
